A study of Mus musculus with 4 samples.

Results

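Hypoxia alone and IL6 alone were set against each other with 2 of the 4 arrays of the study, 1 of HC macrophages and 1 of NC+IL6 macrophages. All arrays held RNA from RAW264.7, a mouse macrophage line transformed by a leukemia virus, kept for 4 days in its condition. HC cells were kept in 1% oxygen without IL6, NC+IL6 cells in normoxia with 25 ng/ml IL6, HC+IL6 cells in 1% oxygen with IL6, and NC cells in normoxia without it. No source used here states how much oxygen normoxia held. The values are log2 signals of Affymetrix probe sets, on which a difference of 1 is 2-fold. A gene was represented by its brightest probe set and counted as measured where the log2 signal was 7.5 or more on the HC or the NC+IL6 array, which held for 8586 of 18194 genes (47.2%).

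Cells short of oxygen stabilize the hypoxia-inducible factors (HIF), which bind a short core sequence and drive glycolytic enzymes, oxygen sensors and vessel growth factors. IL6 acts through its receptor and the kinase JAK on the transcription factor STAT3, whose target Socs3 shuts the receptor down again. Interferons use related STAT proteins, which with Irf9 bind the interferon-stimulated response element and switch on antiviral genes. Amino acid shortage and misfolded protein act through the transcription factor ATF4, which raises amino acid transporters, enzymes of amino acid synthesis and tRNA synthetases. In macrophages, the interferon and chemokine genes are part of what is called M1, and the lectin and repair genes of what is called M2.

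Each condition had a single array, so the differences have no replicates behind them and are given without p-values. A gene was called higher or lower in HC where the signals differed by 2-fold or more, after a signal under 7.5 was raised to 7.5, and such folds are given as at least their size. By this rule 415 genes (4.83%) were higher and 304 (3.54%) were lower in HC than in NC+IL6. Of these, 50 higher genes were under 7.5 in NC+IL6 and 44 lower genes under 7.5 in HC, so the filter fixed their direction. Of all called genes, a fold of 4 or more was met by 35 higher and 47 lower ones, and a fold of 8 or more by 5 and 12. The median log2 ratio of all measured genes was 0.04. The log2 ratios of probe sets of the same gene differed with an SD of 0.40 (7669 probe sets of 3074 genes). The 41 spike-in probe sets, which follow RNA added during labelling, had log2 ratios of -0.38 to 0.41 (SD 0.15). Neither measures the variation between cultures, so precision is limited by the number of arrays.

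Both RNAs carried the genes of macrophages. All 10 defining markers were measured, with log2 signals of 10.08 to 15.03 in HC and of 9.43 or more in NC+IL6. Csf1r, the receptor of the macrophage growth factor, had log2 signals of 14.94 in HC and 14.78 in NC+IL6. Markers of fibroblasts (9 of 9), epithelium (9 of 9), endothelium (9 of 9) and neutrophils (7 of 7) were under 7.5 on both arrays. Of T cell and B cell markers, 2 of 11 and 1 of 8 were measured, and Cd28 (at least 2.89-fold higher in HC) and Blnk (2.31-fold higher in HC) were called. Of the 10 macrophage markers, Fcgr1 was 3.88-fold lower and Mpeg1, a pore-forming protein of macrophages, 2.52-fold higher in HC, and the other 8 were under 2-fold. The other 9 T cell and 7 B cell markers were under 7.5 on both arrays, and the part of such cells in the results was not tested. In a bulk culture, fewer cells of a state and less RNA per cell cannot be told apart. The 3' to 5' signal ratio of a control gene is a sign of RNA integrity. For beta-actin it was 1.73 in HC, 1.41 in NC+IL6, 1.62 in HC+IL6 and 1.54 in NC. For Gapdh it was 0.87 in HC, 0.93 in NC+IL6, 0.88 in HC+IL6 and 0.93 in NC. HC thus had the highest ratio for beta-actin and the lowest for Gapdh. The part of RNA integrity in the differences was not tested.

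**Figure D1:**
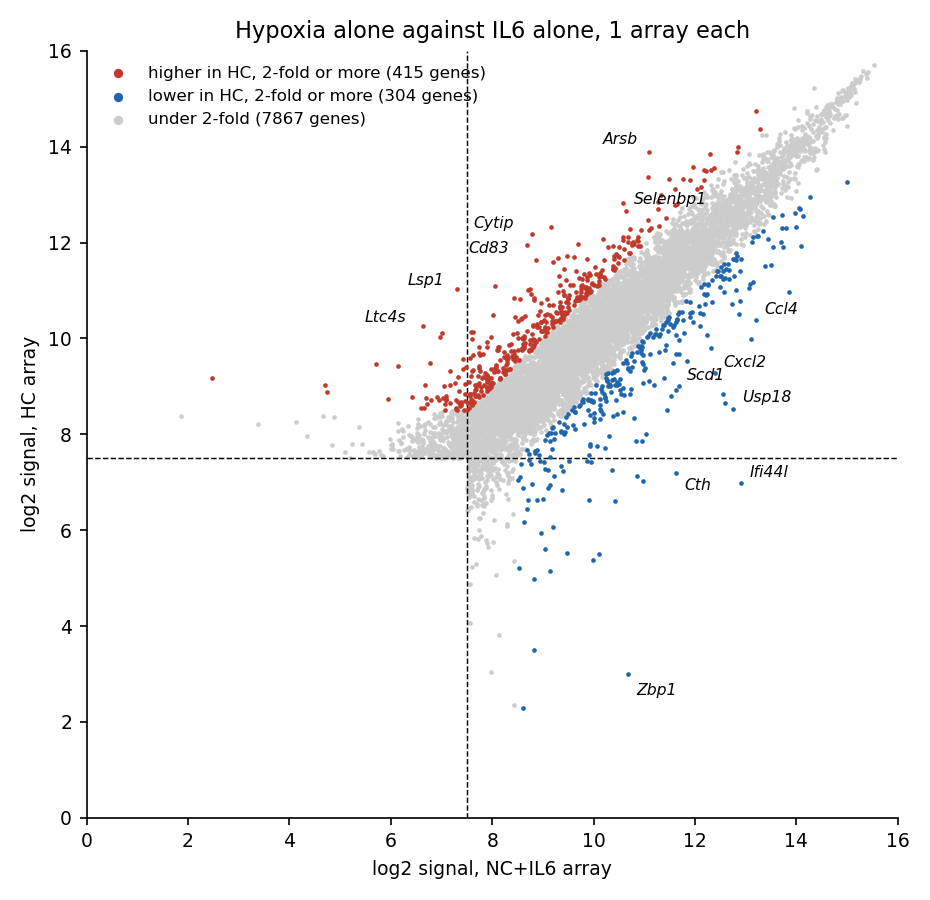
Log2 signal of 8586 measured genes in HC (vertical axis) and in NC+IL6 (horizontal axis), 1 array each, with the 415 genes that were 2-fold or more higher in HC in red, the 304 that were lower in blue and the rest in grey. Dashed lines mark the log2 signal of 7.5, and grey points beyond a 2-fold difference have their dimmer signal raised to this line before the fold is taken. Ifi44l, Usp18 and Zbp1 lie far below the diagonal, and Lsp1, Cytip and Cd83 far above it.

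The genes lowest in HC relative to NC+IL6 were mostly interferon-stimulated genes and genes of the ATF4 response. Of the 15 lowest, Ifi44l, Usp18, Xaf1, Irf7, Zbp1, Rtp4 and Cxcl10 were in the interferon list, and Cth, Trib3 and Ddit3 in the ATF4 list. The other 5 were Ifi202b, an interferon-inducible DNA-binding protein of the same family as Ifi204, Cxcl2, a neutrophil chemokine, Fkbp11, an isomerase of the secretory pathway, Gja1, a connexin of gap junctions, and H2-T24, a class I-like gene of the major histocompatibility complex.

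The genes highest in HC relative to NC+IL6 included genes of adhesion, lectins, leukotriene enzymes and signalling proteins. The 15 highest were Lsp1, Cytip, Cd83, St6gal1, Cav2, Arsb, Clec7a, Ltc4s, Plxnd1, Egr3, Cd33, Bmf, Pdcd4, Alox5 and Ndrg4. Of the 415 genes called higher, 43 were in 1 or more of the 49 lists of pathways and functions used here, as were 124 of the 304 called lower.

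**Figure D2:**
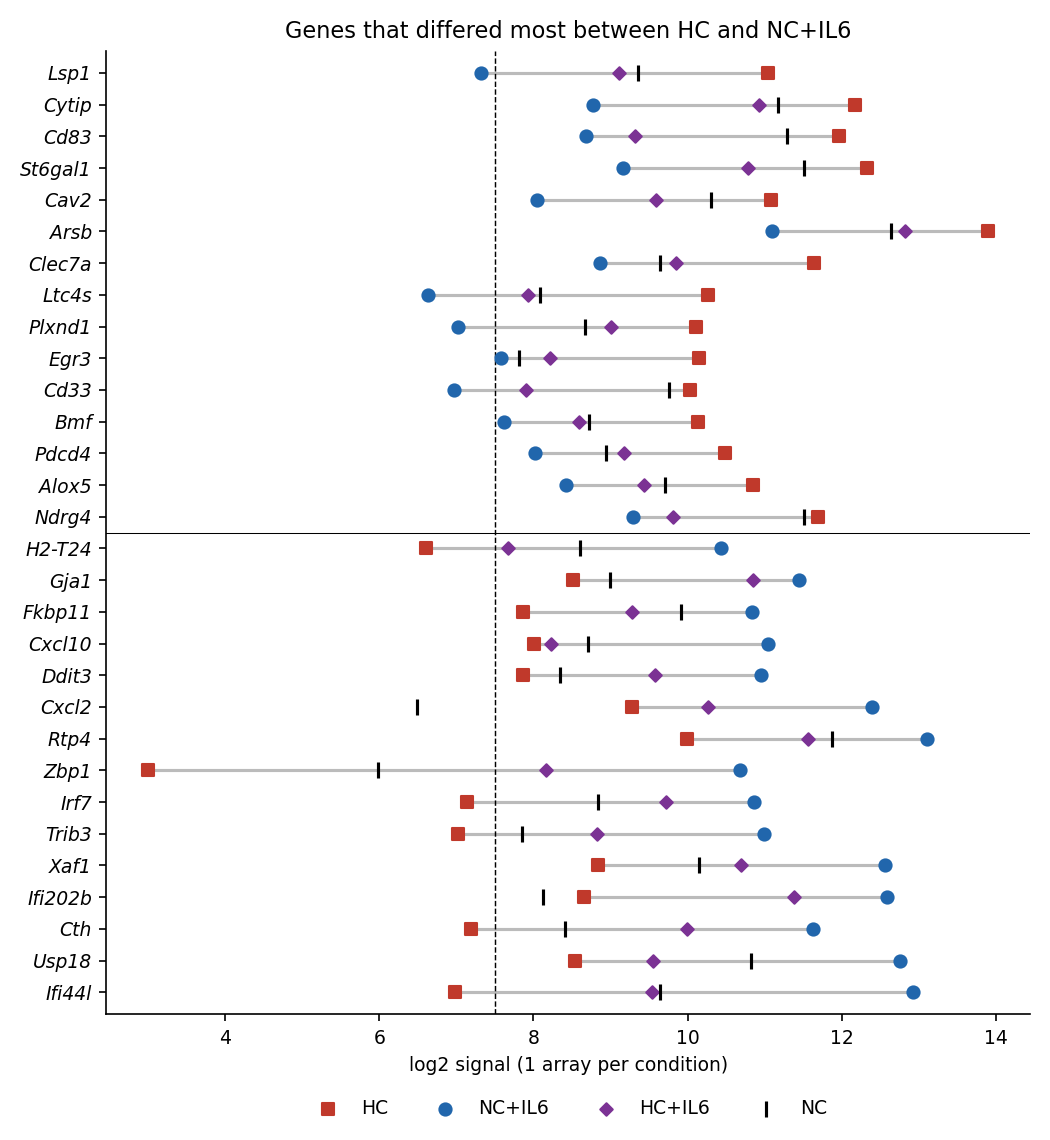
Log2 signal on each of the 4 arrays (1 per condition) of the 15 genes highest and the 15 lowest in HC relative to NC+IL6, with HC as red squares, NC+IL6 as blue circles, HC+IL6 as purple diamonds and NC as black ticks. The dashed line is the log2 signal of 7.5. NC lies between the 2 single stimuli for every gene except Cxcl2 and Ifi202b, where it is below both.

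Interferon-stimulated genes gave more called genes than any other of the 49 lists. Of 43 list members with a probe set 41 were measured, 35 of these were lower in HC than in NC+IL6, 0 were higher, and all 41 log2 ratios were negative, with a median of -1.99 against 0.04 for all genes. Members under 7.5 in HC, such as Zbp1, Ifi44l and Irf7, passed the filter only through NC+IL6. Their log2 ratio could only be negative, so the shared sign is partly fixed by the filter. Promoters of 4 interferon genes are shown because their log2 ratios stand beside 1 or 2 copies of the interferon-stimulated response element. They were picked after the values were seen, for holding the motif. Each is the 250 bases before the RefSeq start site in GRCm38.p6, 5′ to 3′ on the gene's strand, and capitals mark the letters GAAA, any 2 bases and again GAAA, on either strand.
Cxcl10: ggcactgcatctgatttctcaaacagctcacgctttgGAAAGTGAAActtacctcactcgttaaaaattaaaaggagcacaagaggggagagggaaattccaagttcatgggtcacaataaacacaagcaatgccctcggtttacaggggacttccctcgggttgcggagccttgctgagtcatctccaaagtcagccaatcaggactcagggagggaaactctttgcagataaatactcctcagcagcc
Oas1a: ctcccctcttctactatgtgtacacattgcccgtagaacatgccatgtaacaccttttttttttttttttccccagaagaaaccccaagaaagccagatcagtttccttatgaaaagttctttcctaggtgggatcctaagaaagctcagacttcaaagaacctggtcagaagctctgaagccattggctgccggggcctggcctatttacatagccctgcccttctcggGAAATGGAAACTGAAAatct
Bst2: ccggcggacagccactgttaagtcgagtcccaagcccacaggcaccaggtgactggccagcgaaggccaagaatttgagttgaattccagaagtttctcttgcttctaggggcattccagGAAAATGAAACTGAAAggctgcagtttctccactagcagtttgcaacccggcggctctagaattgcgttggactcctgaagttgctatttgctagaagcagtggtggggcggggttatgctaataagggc
Ifit3: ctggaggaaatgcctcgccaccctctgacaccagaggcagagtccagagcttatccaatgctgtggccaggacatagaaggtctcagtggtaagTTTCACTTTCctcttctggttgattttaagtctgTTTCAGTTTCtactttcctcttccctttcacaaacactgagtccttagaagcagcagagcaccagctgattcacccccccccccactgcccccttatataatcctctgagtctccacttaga
The first lies at chr5:92348890-92349139 on the minus strand, the second at chr5:120907526-120907775 on the minus strand, the third at chr8:71537473-71537722 on the minus strand and the fourth at chr19:34583279-34583528 on the plus strand. In Oas1a and Bst2 both copies overlap. The motif was found in 13 of 36 promoters of the measured interferon genes (36.1%), against 3.44% of all 32851 promoters of 300 bases (250 before and 50 from the start on). It was in 9.96% of promoters of all genes lower in HC and in 3.26% of promoters of those higher.

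Cxcl10, a chemokine that draws T cells, had log2 signals of 8.01 in HC, 11.04 in NC+IL6, 8.23 in HC+IL6 and 8.70 in NC. It was 8.18-fold lower in HC than in NC+IL6. Oas1a, which makes the second messenger that turns on RNase L, had 10.97 in HC, 13.86 in NC+IL6, 12.74 in HC+IL6 and 12.62 in NC and was 7.42-fold lower in HC. HC was the dimmest array for both genes. Bst2, the tether that holds budding virus to the membrane, was 5.1-fold lower in HC, with log2 signals of 10.51 in HC, 12.87 in NC+IL6, 11.19 in HC+IL6 and 11.25 in NC. Ifit3, of the family that binds viral RNA, was under 7.5 except in NC+IL6, with 4.99 in HC and 8.82 in NC+IL6, and was at least 2.5-fold lower in HC.

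Ifi44l, an interferon-induced gene, showed the largest difference of all named genes. Its log2 signals were 6.99 in HC, 12.92 in NC+IL6, 9.54 in HC+IL6 and 9.64 in NC, and it was at least 42.7-fold lower in HC. Usp18, a protease that dampens signalling of the interferon receptor, had 8.54 in HC, 12.76 in NC+IL6, 9.55 in HC+IL6 and 10.81 in NC, an 18.7-fold difference. Irf7, the factor that amplifies type I interferon, had 7.14 in HC, 10.86 in NC+IL6, 9.72 in HC+IL6 and 8.83 in NC. In all 3 genes HC and NC+IL6 lay on opposite sides of NC. Xaf1, an interferon-induced antagonist of an apoptosis inhibitor, had log2 signals of 8.84 in HC, 12.56 in NC+IL6, 10.69 in HC+IL6 and 10.15 in NC. Zbp1, a sensor of left-handed nucleic acid, was under 7.5 in both arrays without IL6, with 3.01 in HC, 10.68 in NC+IL6, 8.17 in HC+IL6 and 5.98 in NC. Both arrays with IL6 were thus brighter for Zbp1 than both without it. Some of these genes have near-identical relatives (the Oas1, Ifi200, Trim30, Irgm and H2-T families), so that a probe set may read more than 1 of them.

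Ifi202b had log2 signals of 8.65 in HC, 12.59 in NC+IL6, 11.38 in HC+IL6 and 8.13 in NC and was 15.3-fold lower in HC. H2-T24 had 6.61 in HC, 10.43 in NC+IL6, 7.67 in HC+IL6 and 8.60 in NC, and Gja1 had 8.51 in HC, 11.44 in NC+IL6, 10.85 in HC+IL6 and 9.0 in NC and was 7.64-fold lower. Ifi202b and Gja1 were brighter in both arrays with IL6 than in both without it, which was not so for H2-T24.

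Each stimulus was also set against the same NC array, so the 2 ratios share that array and are given side by side. Over the interferon list the median log2 ratio was -0.65 for HC over NC (32 genes measured) and 1.54 for NC+IL6 over NC (41 genes). The 2-fold rule was met by 6 genes, all lower, in HC, where 1.06% of all genes were lower. It was met by 31 genes, all higher, in NC+IL6, where 3.01% of all genes were higher. Irf7 had log2 ratios of -1.33 in HC and 2.03 in NC+IL6, and Rtp4, a chaperone of receptors, had -1.88 and 1.23 in the same order.

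The interferon-inducible GTPases, which attack the vacuoles of parasites, were lower in HC for 4 of 5 measured members, with a median of -2.15. Igtp had log2 signals of 7.71 in HC, 10.22 in NC+IL6, 9.21 in HC+IL6 and 8.88 in NC, a 5.7-fold difference, and Irgm1 had 9.04 in HC and 11.19 in NC+IL6. Genes of class I antigen presentation followed with a smaller difference, since 5 of 14 were lower in HC, 0 were higher and the median was -0.76. Tap1, a subunit of the peptide transporter, was at least 5.13-fold lower in HC, and the immunoproteasome subunits Psmb10 and Psmb8 were 2.8-fold and 2.04-fold lower. Psmb8 was under 2-fold in the mean of its probe sets (-0.88) and under quantile normalization (-0.98). Nlrc5, the activator of class I genes, had log2 signals of 8.06 in HC, 9.36 in NC+IL6, 9.52 in HC+IL6 and 7.91 in NC. It was bright in both arrays with IL6 and dim in both without it. The 33 proteasome subunits, which include none of the called immunoproteasome genes, all had negative log2 ratios with a median of -0.49, and 0 met the 2-fold rule.

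Chemokines and other M1 genes were lower in HC than in NC+IL6 as well. Of 25 M1 genes with a probe set 12 were measured, and Nos2, Il1b, Il6 and Il12b were among those not measured. Of the 12 measured 9 were lower and 0 higher, with a median of -1.45. Against NC, 2 of 10 were higher and 0 lower in HC (median 0.29), and 9 of 12 higher in NC+IL6. The M1 list shares Ccl3, Ccl4, Cxcl2, Cxcl10 and Cxcl11 with the chemokine lists, and Cxcl10 with the interferon list. Of CC chemokines 3 of 6 (median -0.77) and of CXC chemokines 3 of 5 (median -1.54) were lower in HC, and 0 were higher. Cxcl2 had log2 signals of 9.28 in HC, 12.39 in NC+IL6, 10.26 in HC+IL6 and 6.49 in NC, so that HC was 2-fold or more above NC while being 8.62-fold below NC+IL6. Ccl4, an inflammatory chemokine, had 10.38 in HC, 13.20 in NC+IL6, 12.97 in HC+IL6 and 10.03 in NC. Both arrays with IL6 were high for Ccl4 and both without it were low. Tnf, the proinflammatory cytokine, had 8.83 in HC, 10.21 in NC+IL6, 9.61 in HC+IL6 and 8.48 in NC and was 2.6-fold lower in HC. Ptgs2, the inducible cyclooxygenase, was 2.65-fold lower in HC than in NC+IL6 but higher in each than in NC, with 11.08 in HC, 12.49 in NC+IL6, 13.66 in HC+IL6 and 9.72 in NC. Not every M1 gene was brightest in the array with IL6 alone, since Ptgs2 was brightest in HC+IL6. Acod1, which makes the antimicrobial metabolite itaconate, was 5.07-fold lower in HC, with 7.96 in HC and 10.30 in NC+IL6. Fcgr1, the high-affinity Fc receptor, was 3.88-fold lower and Clec4e, a lectin that senses mycobacterial glycolipid, 3.67-fold lower.

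**Figure D3:**
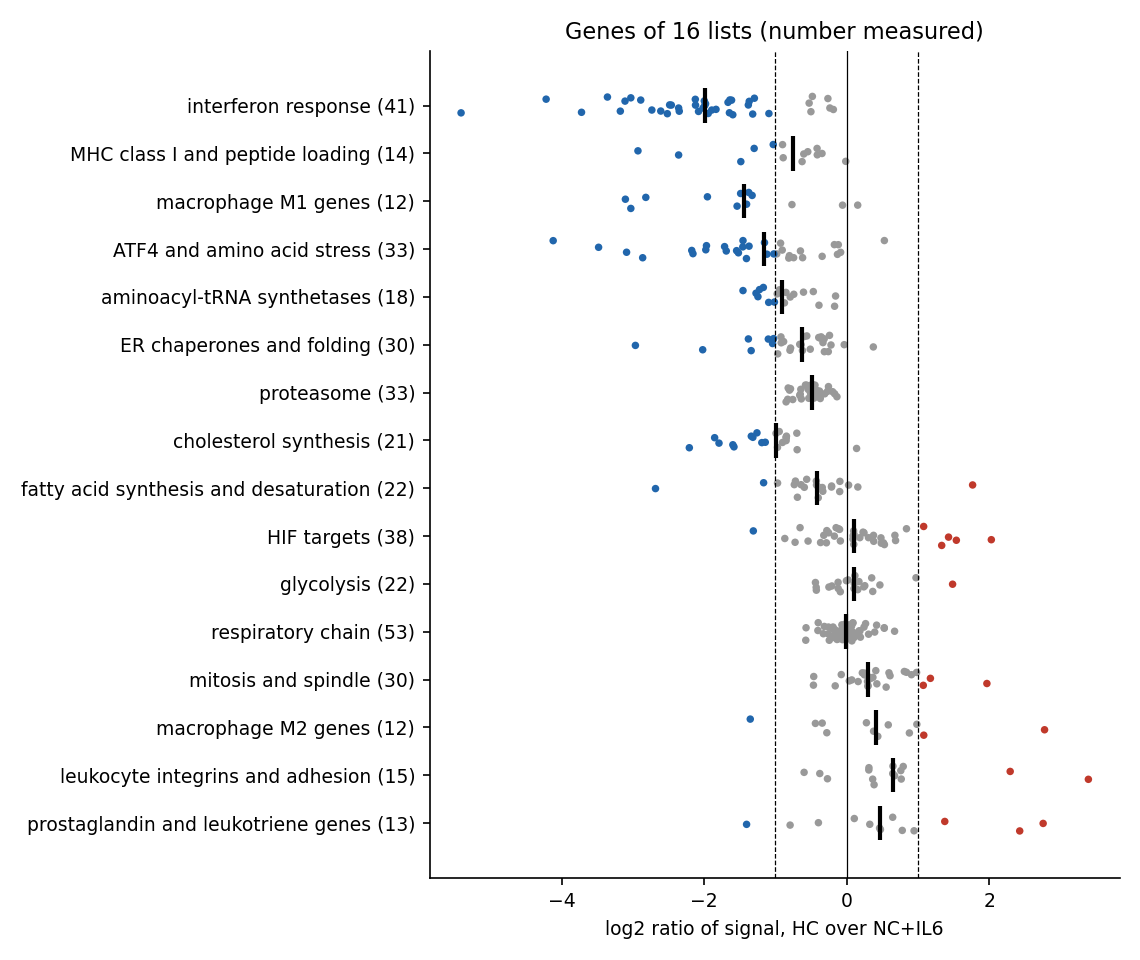
Log2 ratio of signal, HC over NC+IL6, of each measured gene of 16 lists (numbers measured in brackets), with genes 2-fold or more higher in HC in red, lower in blue and the rest in grey, and a black bar at the list's median. Dashed lines mark 2-fold. All 41 interferon genes lie left of 0, which the filter fixes for those under 7.5 in HC. The 53 genes of the respiratory chain lie around 0 with none past 2-fold.

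Genes under ATF4 control formed the other large group that was lower in HC. Of 33 measured members 19 were lower, 0 were higher and the median log2 ratio was -1.15. The promoters of Chac1 and Slc7a11 are shown, chosen after the values were seen because they hold the ATF4 motif TGATGNAA (capitals, either strand), as 250 bases before the start site in GRCm38.p6.
Chac1: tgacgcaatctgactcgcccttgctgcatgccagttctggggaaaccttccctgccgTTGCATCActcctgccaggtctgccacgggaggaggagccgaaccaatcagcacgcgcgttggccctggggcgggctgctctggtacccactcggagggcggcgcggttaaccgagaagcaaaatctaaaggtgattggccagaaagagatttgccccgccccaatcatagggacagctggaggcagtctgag
Slc7a11: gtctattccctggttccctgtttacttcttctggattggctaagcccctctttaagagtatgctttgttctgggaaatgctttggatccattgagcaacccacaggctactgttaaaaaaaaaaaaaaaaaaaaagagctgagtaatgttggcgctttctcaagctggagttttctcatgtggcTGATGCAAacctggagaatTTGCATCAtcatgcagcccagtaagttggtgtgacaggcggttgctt
They lie at chr2:119350992-119351241 on the plus strand and at chr3:50443614-50443863 on the minus strand. Of 32 promoters of the measured ATF4 genes 7 held the motif (21.9%), against 3.97% of all promoters.

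Chac1, which breaks down glutathione, had log2 signals of 7.25 in HC, 10.37 in NC+IL6, 7.65 in HC+IL6 and 8.79 in NC and was at least 7.29-fold lower in HC. Slc7a11, the cystine importer, had 7.41 in HC, 9.02 in NC+IL6, 8.33 in HC+IL6 and 7.69 in NC and was at least 2.87-fold lower. For Chac1 the array with both stimuli was near the HC array, while for Slc7a11 it lay about midway. Cth, which makes cysteine from cystathionine, had 7.19 in HC, 11.62 in NC+IL6, 9.99 in HC+IL6 and 8.41 in NC and was at least 17.4-fold lower in HC. Trib3, a pseudokinase that restrains ATF4, had 7.02 in HC, 10.98 in NC+IL6, 8.82 in HC+IL6 and 7.84 in NC. Ddit3, the factor CHOP of the unfolded protein response, had 7.86 in HC, 10.95 in NC+IL6, 9.58 in HC+IL6 and 8.34 in NC and was 8.52-fold lower in HC. Atf4 itself, named here after its value was seen, was 3.94-fold lower, with 11.53 in HC and 13.51 in NC+IL6.

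The enzymes that load amino acids onto tRNA were lower in HC too. Of 18 measured aminoacyl-tRNA synthetases 7 were lower in HC, 0 higher, and all 18 log2 ratios were negative, with a median of -0.91. Cars, the cysteine enzyme, was 2.74-fold lower and Wars, the tryptophan enzyme, 2.42-fold lower (-0.91 in the mean of its probe sets, under 2-fold). Of 30 measured chaperones and folding factors of the endoplasmic reticulum 7 were lower and 0 higher (median -0.63). Fkbp11 had 7.86 in HC, 10.83 in NC+IL6, 9.28 in HC+IL6 and 9.91 in NC and was 7.82-fold lower in HC, and Creld2, a factor induced by misfolded protein, was 4.06-fold lower. Against NC, the ATF4 list had a median of -0.48 in HC and 0.87 in NC+IL6, and the synthetases had -0.51 in HC and 0.33 in NC+IL6. The medians of both lists thus lay on opposite sides of NC.

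Cholesterol synthesis was lower in HC, while the NC+IL6 array lay close to NC for these genes. Of 21 measured genes, mostly enzymes with a few regulators and carriers of sterol, 10 were lower in HC than in NC+IL6, 0 were higher, and 20 of 21 log2 ratios were negative (median -0.99). Against NC the median was -1.09 in HC, with 16 of 21 genes lower by 2-fold, and -0.01 in NC+IL6, with 0 genes past 2-fold. Lss, the cyclase that makes lanosterol, had log2 signals of 9.17 in HC, 11.38 in NC+IL6, 10.17 in HC+IL6 and 11.20 in NC and was 4.63-fold lower in HC. Cyp51, the lanosterol demethylase, which uses oxygen, had 10.25 in HC, 12.10 in NC+IL6, 11.44 in HC+IL6 and 11.97 in NC. Fdft1, squalene synthase, had 11.01 in HC, 12.81 in NC+IL6, 12.11 in HC+IL6 and 12.58 in NC and was 3.47-fold lower. In each of these 3 genes HC was the dimmest array, the log2 ratio of NC+IL6 over NC was 0.19, 0.14 and 0.23, and HC+IL6 lay between HC and NC+IL6. The sterol regulatory element TCACNCCAC was in 1 of 20 promoters of the measured genes (5%), against 1.24% of all promoters, and in 0 of 9 promoters of those lower in HC.

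Of 22 measured fatty acid genes 2 were lower and 1 was higher in HC, where 3.54% and 4.83% of all genes were. Negative log2 ratios were found for 19 of the 22, with a median of -0.41. Scd1, the desaturase that makes oleate and needs oxygen, had 9.0 in HC, 11.69 in NC+IL6, 10.57 in HC+IL6 and 11.26 in NC and was 6.43-fold lower in HC. Hacd4, a dehydratase of fatty acid elongation, had 10.73 in HC, 8.97 in NC+IL6, 10.34 in HC+IL6 and 8.03 in NC and was 3.41-fold higher. Its 2 hypoxic arrays were the brightest. Of 14 genes of lipid handling and of the sterol sensor LXR 3 were higher, which were Lipa, the lysosomal lipase (2.7-fold), Pltp, the phospholipid transfer protein (2.47-fold), and Mylip, a ligase that marks lipoprotein receptors for decay (2.71-fold), while Fabp5, a fatty acid carrier, was 2.99-fold lower. In the mean of its probe sets Pltp was just under 2-fold (0.97).

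**Figure D4:**
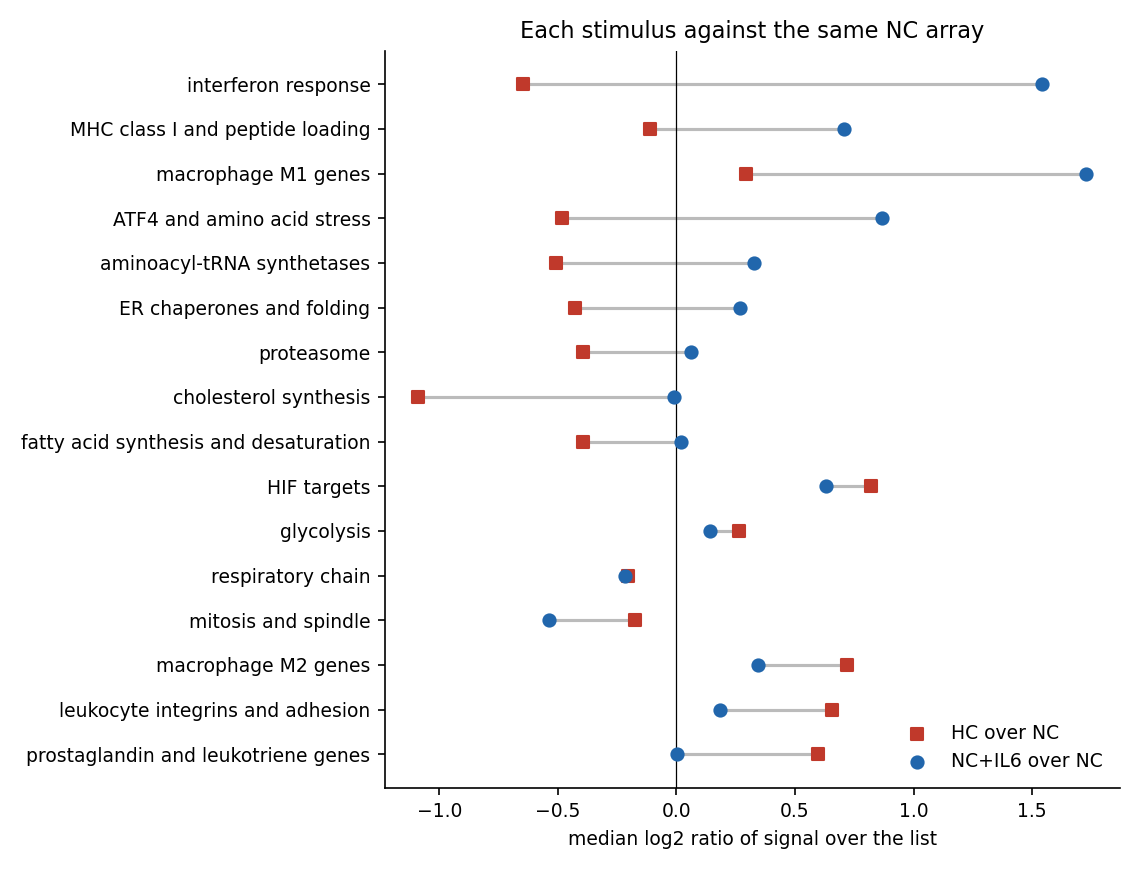
Median log2 ratio of signal of the measured genes of 16 lists, for HC over NC (red squares) and NC+IL6 over NC (blue circles), which share the NC array. The genes measured can differ between the 2 ratios (32 and 41 in the interferon list). The interferon list has medians of -0.65 in HC and 1.54 in NC+IL6, the cholesterol list -1.09 and -0.01 in the same order, and the HIF targets 0.82 and 0.63.

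HIF targets as a group had close signals on both arrays. Of 38 measured targets 5 were higher and 1 was lower in HC than in NC+IL6, where 4.83% and 3.54% of all genes were. The median log2 ratio was 0.10. Against NC the median was 0.82 in HC, with 17 of 38 genes higher by 2-fold (all genes 2.95%). In NC+IL6 it was 0.63, with 12 of 36 higher (all genes 3.01%). Glycolysis gave 1 of 22 genes higher and a median of 0.11, and respiratory chain subunits 0 of 53 past 2-fold and a median of -0.01. The median of glycolysis was negative under quantile normalization and that of the respiratory chain positive under cyclic loess.

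The promoters of Ankrd37 and Egln1 are printed as those of 2 HIF targets that were higher in HC and hold the HIF core ACGTG (capitals, either strand), again as the 250 bases before the start site in GRCm38.p6 and chosen after the values were seen.
Ankrd37: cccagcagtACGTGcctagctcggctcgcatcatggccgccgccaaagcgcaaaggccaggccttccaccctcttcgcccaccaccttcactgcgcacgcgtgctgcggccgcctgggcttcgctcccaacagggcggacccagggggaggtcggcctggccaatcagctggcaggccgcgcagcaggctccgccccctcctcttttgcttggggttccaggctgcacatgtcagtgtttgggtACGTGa
Egln1: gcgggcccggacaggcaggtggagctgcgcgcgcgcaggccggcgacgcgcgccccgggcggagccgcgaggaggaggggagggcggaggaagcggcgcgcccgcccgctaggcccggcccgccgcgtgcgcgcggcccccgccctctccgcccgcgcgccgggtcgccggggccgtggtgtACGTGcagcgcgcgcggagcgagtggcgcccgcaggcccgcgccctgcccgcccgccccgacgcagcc
They lie at chr8:45999851-46000100 on the minus strand and at chr8:124949255-124949504 on the minus strand. The core is short and was in 19.6% of all promoters and in 27.1% of those of all measured genes. It was in 25 of 45 promoters of the measured HIF targets (55.6%) and in 20.2% of promoters of all genes higher in HC.

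Ankrd37, a small ankyrin repeat protein, had log2 signals of 11.35 in HC, 9.81 in NC+IL6, 11.77 in HC+IL6 and 9.04 in NC and was 2.91-fold higher in HC than in NC+IL6. Egln1, the oxygen sensor that marks HIF for decay, had 10.43 in HC, 9.35 in NC+IL6, 10.43 in HC+IL6 and 9.28 in NC and was 2.12-fold higher. The other measured probe set of Egln1 had a log2 ratio of 0.06, and the mean of both, 0.57, was under 2-fold. Selenbp1, a selenium-binding methanethiol oxidase, had 12.66 in HC, 10.63 in NC+IL6, 13.54 in HC+IL6 and 9.15 in NC and was 4.09-fold higher. For these 3 genes both hypoxic arrays were brighter than both normoxic ones. Mgarp, a mitochondrial protein, gave 9.23 in HC and 7.90 in NC+IL6, and Zfp36l1, which binds AU-rich mRNA, gave 10.01 in HC and 8.58 in NC+IL6. Hmox1, the heme-degrading oxygenase, was the target that was lower in HC (2.48-fold), with 9.37 in HC, 10.68 in NC+IL6, 11.21 in HC+IL6 and 8.22 in NC.

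**Figure D5:**
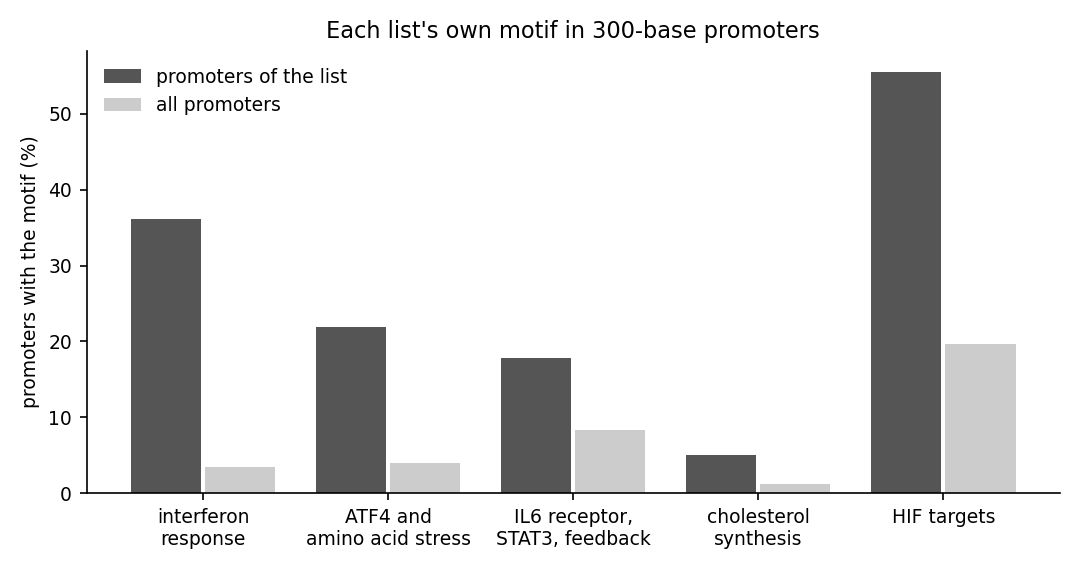
Share of promoters of 300 bases that hold the motif named for each list, for the measured genes of the list (dark bars) and for all 32851 promoters (light bars). The interferon-stimulated response element is in 36.1% of the interferon promoters and 3.44% of all, and the HIF core in 55.6% of the promoters of HIF targets and 19.6% of all.

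The few called genes of the receptor pathway of IL6 itself went both ways. Of 27 measured genes of the IL6 receptor, STAT3 and its feedback 4 were lower and 2 higher in HC than in NC+IL6. Of all genes 3.54% were lower and 4.83% higher. The median of the list was 0.04. The promoter of Socs3 is shown for its STAT motif TTCNNNGAA (capitals, the same on either strand), on the same terms as the others, and lies at chr11:117969367-117969616 on the minus strand.
Socs3: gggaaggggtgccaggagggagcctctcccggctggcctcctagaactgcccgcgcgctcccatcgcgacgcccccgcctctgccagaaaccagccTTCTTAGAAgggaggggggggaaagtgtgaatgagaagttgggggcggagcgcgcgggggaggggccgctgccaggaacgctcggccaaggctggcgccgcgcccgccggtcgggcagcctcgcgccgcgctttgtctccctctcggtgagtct
The motif was in 5 of 28 promoters of the measured genes of this list (17.9%) and in 8.30% of all promoters. It was about as common for the measured interferon genes (6 of 36, 16.7%) and ATF4 genes (5 of 32, 15.6%). For the measured cholesterol genes it was in 2 of 20 promoters and for HIF targets in 1 of 45. It overlaps the interferon-stimulated response element in 24 of 1210 matches of that element.

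Socs3, the feedback inhibitor of the IL6 receptor, had log2 signals of 11.26 in HC, 12.59 in NC+IL6, 13.55 in HC+IL6 and 10.36 in NC and was 2.51-fold lower in HC. Stat3 had 9.14 in HC, 10.27 in NC+IL6, 10.59 in HC+IL6 and 9.18 in NC and was 2.19-fold lower. Nfil3, a basic leucine zipper factor, had 8.92 in HC, 10.52 in NC+IL6, 10.79 in HC+IL6 and 8.46 in NC and was 3.03-fold lower. In all 3 the arrays with IL6 were the 2 brightest. The fourth gene that was lower, named for this count, was Bcl3 (2.15-fold), an atypical inhibitor of NF-kB. Il10ra, the receptor chain for the restraining cytokine IL10, went the other way with 9.41 in HC, 7.49 in NC+IL6, 8.10 in HC+IL6 and 7.93 in NC and was at least 3.76-fold higher in HC, and Tnfrsf1b, a receptor of Tnf, was 2.43-fold higher.

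Adhesion and surface genes were among those highest in HC. Lsp1, an actin-binding protein of leukocytes, had 11.04 in HC, 7.31 in NC+IL6, 9.11 in HC+IL6 and 9.36 in NC and was at least 11.6-fold higher in HC. Cytip, which regulates integrin adhesion, had 12.17 in HC, 8.78 in NC+IL6, 10.93 in HC+IL6 and 11.16 in NC and was 10.5-fold higher. For both, HC was the brightest and NC+IL6 the dimmest array. Itga4, an integrin chain that binds Vcam1, had 13.37 in HC, 11.07 in NC+IL6, 11.40 in HC+IL6 and 12.56 in NC and was 4.91-fold higher. Of 15 measured leukocyte integrins and adhesion genes 2 were higher and 0 lower, where 4.83% and 3.54% of all genes were. Positive log2 ratios were found for 12 of the 15 (median 0.65). Cd83, a marker of activated antigen-presenting cells, had 11.96 in HC, 8.68 in NC+IL6, 9.31 in HC+IL6 and 11.28 in NC and was 9.7-fold higher in HC. Cd74, the invariant chain of class II, had 11.04 in HC, 8.75 in NC+IL6, 10.62 in HC+IL6 and 9.37 in NC. St6gal1, which adds sialic acid to galactose, had 12.32 in HC, 9.17 in NC+IL6, 10.78 in HC+IL6 and 11.50 in NC. Cd83 and St6gal1 were lower in both arrays with IL6 than in both without it, whereas Cd74 was higher in both hypoxic arrays.

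Cav2, a caveolin of membrane pits, had log2 signals of 11.09 in HC, 8.05 in NC+IL6, 9.59 in HC+IL6 and 10.30 in NC and was 8.2-fold higher in HC. Arsb, a lysosomal enzyme that cuts sulfate from glycosaminoglycans, had 13.89 in HC, 11.09 in NC+IL6, 12.82 in HC+IL6 and 12.64 in NC and was 6.96-fold higher. Ndrg4 had 11.68 in HC, 9.29 in NC+IL6, 9.81 in HC+IL6 and 11.51 in NC and was 5.24-fold higher. Cav2 and Ndrg4 were dimmer in both arrays with IL6 than in both without it, and for Ndrg4 HC and NC were near each other.

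Lectins were split between the stimuli, with 3 of 13 higher and 3 lower in HC, where 4.83% and 3.54% of all genes were. The lower ones were Clec4e, Lgals9 and Clec2d, and the higher ones Clec7a, Cd33 and, named for this count, Clec4a2. Clec7a, the receptor for fungal beta-glucan and an M2 gene, had 11.64 in HC, 8.86 in NC+IL6, 9.84 in HC+IL6 and 9.64 in NC and was 6.86-fold higher in HC. Cd33, a Siglec, had 10.03 in HC, 6.97 in NC+IL6, 7.90 in HC+IL6 and 9.75 in NC and was at least 5.78-fold higher. Of 27 M2 genes with a probe set 12 were measured, and Mrc1, Cd209a and Chil3 were among those not measured. The M2 list as a whole gave 2 of 12 genes higher and 1 lower, with a median of 0.41. Against NC, 5 of 11 were higher and 0 lower in HC (median 0.72). In NC+IL6 3 of 11 were higher and 0 lower (median 0.34). Igf1 was just under 2-fold by its brightest probe set (0.99), while its 3 other measured probe sets had 1.42 to 3.42. Egr2, a factor of alternative activation, was 2.12-fold higher, and Il1rn, the antagonist of IL1, was 2.56-fold lower. Egr2 was under 2-fold under quantile normalization (0.92) and cyclic loess (0.87), and Il1rn in the mean of its probe sets (-0.86).

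Both enzymes that lead to the cysteinyl leukotrienes and passed the 2-fold rule were higher in HC. Ltc4s, their synthase, had 10.26 in HC, 6.63 in NC+IL6, 7.92 in HC+IL6 and 8.09 in NC and was at least 6.77-fold higher. Alox5, the lipoxygenase at the start of the pathway, had 10.85 in HC, 8.42 in NC+IL6, 9.43 in HC+IL6 and 9.71 in NC and was 5.39-fold higher. Hpgd, which inactivates prostaglandins, was at least 2.6-fold higher, with 8.88 in HC and 4.75 in NC+IL6. Of 13 measured prostaglandin and leukotriene genes 3 were thus higher and 1, Ptgs2, was lower (median 0.47), where 4.83% and 3.54% of all genes were.

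Most early response and signalling genes were under 2-fold, as were most genes measured. Of 21 measured EGR and AP-1 factors 3 were higher and 1 lower in HC (median 0.09), where 4.83% and 3.54% of all genes were. Egr3 had 10.14 in HC, 7.57 in NC+IL6, 8.21 in HC+IL6 and 7.81 in NC and was 5.93-fold higher, and Btg2, an antiproliferative factor, was 4.02-fold higher. Both were brightest in HC. Tgfbr1, the type I receptor of TGF-beta, had 11.59 in HC, 9.21 in NC+IL6, 9.81 in HC+IL6 and 10.75 in NC and was 5.22-fold higher. Plxnd1, a semaphorin receptor, had 10.11 in HC, 7.02 in NC+IL6, 9.0 in HC+IL6 and 8.67 in NC. Pdcd4, an inhibitor of translation, had 10.49 in HC, 8.02 in NC+IL6, 9.18 in HC+IL6 and 8.94 in NC and was 5.52-fold higher in HC.

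Proliferation genes were mostly under 2-fold, with mitosis genes leaning higher in HC than in NC+IL6 but not higher than in NC. Of 30 measured genes of mitosis 3 were higher and 0 lower in HC, where 4.83% and 3.54% of all genes were. Positive log2 ratios were found for 26 of them, with a median of 0.30 against 0.04 for all genes. Against NC the median of the mitosis genes was -0.17 in HC, with 0 of 30 higher or lower by 2-fold. In NC+IL6 it was -0.54, with 0 of 30 higher and 1 lower. Cenpf, a kinetochore protein, was 3.92-fold higher and Mki67 2.11-fold higher. Of 39 genes of DNA replication 1 was lower, Pold2 (2.13-fold), and the median was -0.17. The median of the 34 cytosolic ribosomal proteins was 0.17, with 1 past 2-fold, and that of 16 housekeeping genes -0.01, with 0 past 2-fold.

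The called genes were placed relative to NC, which shows on which array the departure lay. Of the 415 genes higher in HC than in NC+IL6, 123 were 2-fold from NC in HC alone, 53 in NC+IL6 alone, 10 in both and 229 in neither. Of the 304 lower genes, 47 were 2-fold from NC in HC alone, 147 in NC+IL6 alone, 11 in both and 99 in neither. Of all genes, 0.893% were lower by 2-fold in NC+IL6 than in NC. Since the genes were chosen as far apart on these 2 arrays, a position of NC between them is partly fixed by the choice.

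The same holds for the array with both stimuli, whose positions are given as a description. On a scale with NC+IL6 at 0 and HC at 1, its median position was 0.53 for the 415 genes higher in HC and 0.47 for the 304 lower ones. It was between them for 381 of 415 and 258 of 304 genes, and NC for 371 of 415 and 234 of 304. Lower genes beyond the NC+IL6 array numbered 38, and higher genes beyond the HC array 22. Ccr1, a chemokine receptor, is a named example of the first kind, with 7.57 in HC, 9.91 in NC+IL6, 11.91 in HC+IL6 and 5.77 in NC, and Selenbp1 is one of the second.

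At the edges of the rules, Cemip2, just above the filter in HC and at 7.33 in NC+IL6, was measured, and Pomt1, just below it in HC and at 7.47 in NC+IL6, was not. Filip1l (8.82 in HC and 7.82 in NC+IL6) was just past 2-fold and called higher, and Chd9 (9.55 in HC and 8.55 in NC+IL6) just missed it. Nt5e (7.06 in HC, raised to 7.5) was just called lower, and Nfkbib (8.38 in HC and 9.38 in NC+IL6) was not.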

How the data were processed

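RNA of RAW264.7 macrophages from 4 conditions was hybridized to 1 Affymetrix array each. The authors summarized 45101 probe sets with MAS5 (version not given in the sources used here) and deposited log2 signals, with 1 table for all 4 arrays. The trimmed mean signal (2% at each end) was 500 on every array, and the median log2 signal was 5.90 in HC, 5.55 in NC+IL6, 5.86 in HC+IL6 and 5.64 in NC. Of the probe sets, 34958 carried 1 gene symbol, 932 several and 9211 none, and 34754 were matched to RefSeq gene numbers. A few items are not reported here.

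Log2 ratios were differences of log2 signals, computed with Python 3.11.15, numpy 2.4.6 and pandas 2.3.3, and figures drawn with matplotlib 3.10.9. For each gene the probe set brightest on average over the 4 arrays was used, filtered and floored at 7.5. Samples were grouped by their treatment labels. The named genes are the 15 highest and the 15 lowest whose other measured probe sets have the same sign, and up to 5 of each of 49 lists with the largest difference. The members and lists were chosen with earlier results of these data known. The calculations were tested on simulated data. Alternatives tried were scaling by quantiles or by cyclic loess (limma 3.58.1, R 4.3.3), no filter and no floor, a filter and floor of 8.5, the mean over a gene's probe sets, and a floor on each array from genes of other tissues. Promoters came from the RefSeq annotation of GRCm38.p6.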

Additional observations from a re-analysis of the deposited data

Results flagged for a closer look

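Some genes were 2-fold or more from NC in opposite directions under the 2 stimuli. There were 10 genes higher in HC and lower in NC+IL6 than in NC, and 11 genes the other way round, and 16 of them are among the named genes. With 1 array per condition the difference was not tested, and both ratios share the NC array.

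Of the named genes above NC in HC and below it in NC+IL6, Lsp1 had a log2 ratio of HC over NC+IL6 of 3.54, Cytip of 3.39, Arsb, a lysosomal sulfatase, of 2.80, Plxnd1 of 2.61, Bmf, a BH3-only cell death factor, of 2.51, and Alox5 of 2.43. Against NC, Arsb had 1.25 in HC and -1.55 in NC+IL6, and Bmf had 1.41 in HC and -1.10 in NC+IL6.

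Of those below NC in HC and above it in NC+IL6, the interferon-stimulated genes were Ifi44l (-5.42), Usp18 (-4.22), Xaf1 (-3.72), Irf7 (-3.36), Rtp4 (-3.11) and the GTPases Igtp (-2.51) and Irgm2 (-2.32), each as the log2 ratio of HC over NC+IL6. The others were H2-T24 at -2.93, Chac1 at -2.87 and Atf5, a factor downstream of ATF4, at -2.18. Usp18 had -2.28 in HC and 1.94 in NC+IL6 against NC, and Atf5 had -1.07 in HC and 1.11 in NC+IL6.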

How the results depend on the processing

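No paired analysis was possible because each condition has 1 array. The counts of genes higher and lower in HC were 358 and 360 under quantile normalization, 343 and 368 under cyclic loess, 288 and 248 with a filter and floor of 8.5, 325 and 254 with the mean over probe sets, and 531 and 337 with a floor per array. Without filter and floor they were 3155 and 2224 of 18194 genes, since dim signals then count. Of the 415 and 304 genes called, 343 and 294 were also called under quantile normalization and 338 and 299 under cyclic loess. The median log2 ratio of all genes was -0.02 under both scalings.

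Without filter and floor the median log2 ratio was 0.33 for class II and costimulation genes (-0.10 with them), -2.03 for CC chemokines (-0.77 with them) and -0.32 for CXC chemokines (-1.54 with them). With 8.5 it was 0.34 for class II genes and -0.54 for CXC chemokines, and with a floor per array -0.94 for CXC chemokines. These lists hold 4 to 6 measured genes. With 8.5 the histone list had no measured gene. In 14 of 49 lists the median changed sign under at least 1 alternative, all with medians of -0.26 to 0.14. Of the 131 named genes called, 127 were past 2-fold under quantile normalization, 129 under cyclic loess, 113 with 8.5 and 120 with the mean over probe sets, which ended the call of Egln1, Il1rn, Mbp, Me1, Mitf, Nfatc1, Pltp, Psmb8, Sc5d, Tnfrsf11a and Wars. Calls ended by 8.5 were C1qb, Ccl2, Cd28, Clec2d, Cpox, Cxcl11, Dcstamp, Egr2, Hpgd, Ikbke, Il10ra, Il1rn, Lgals9, Mgarp, Mvk, Nlrc5, Slc7a11 and Tnfrsf1b. Of 342 called genes with further measured probe sets, 291 had all of these on the same side.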

Other observations

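Genes of osteoclasts, which form from macrophage precursors, were divided. Of 11 measured genes 4 were higher and 1 was lower in HC than in NC+IL6, where 4.83% and 3.54% of all genes were. The median log2 ratio was 0.49. Nfatc1, the master factor of osteoclasts, had log2 signals of 11.11 in HC, 9.34 in NC+IL6, 9.33 in HC+IL6 and 10.70 in NC and was 3.42-fold higher in HC. Dcstamp, needed for cell fusion, had 9.31 in HC, 7.61 in NC+IL6, 8.41 in HC+IL6 and 8.88 in NC and was 3.26-fold higher, as were Car2, which makes acid (2.93-fold), and Mitf (2.03-fold). The 3 other measured probe sets of Nfatc1 had log2 ratios of 0.23 to 0.93, and in the mean over probe sets Nfatc1 (0.94) and Mitf (0.77) were under 2-fold. Nfatc1 and Dcstamp were dimmer in both arrays with IL6 than in both without it. Tnfrsf11a, the receptor RANK, was 2.26-fold lower in HC by its brightest probe set, but its other measured probe set had the opposite sign.

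Heme and thiol genes were lower in HC where they passed 2-fold, while 3.54% of all genes were lower and 4.83% higher. In the iron and heme list 3 of 22 genes and in the antioxidant list 3 of 26 were lower, and 0 were higher. These were Cpox, Nupr1 and Hmox1 in the iron and heme list, and Slc7a11, Mt2 and again Hmox1 in the antioxidant list, of which Nupr1 and Slc7a11 are also in the ATF4 list. Cpox, an enzyme of heme synthesis that uses oxygen, had 7.34 in HC, 9.36 in NC+IL6, 8.97 in HC+IL6 and 8.96 in NC, and Mt2, a metal-binding protein, had 12.94 in HC, 14.26 in NC+IL6, 14.67 in HC+IL6 and 12.29 in NC and was 2.5-fold lower. Cpox was dimmest in HC, and Mt2 was brighter in both arrays with IL6.

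Of 12 measured genes of the BCL2 family 2 were higher and 0 lower in HC, where 4.83% and 3.54% of all genes were. Bmf had 10.13 in HC, 7.62 in NC+IL6, 8.60 in HC+IL6 and 8.72 in NC and Pmaip1, also a BH3-only factor, had 11.10 in HC, 10.07 in NC+IL6, 10.94 in HC+IL6 and 10.43 in NC. Cast, the inhibitor of calpains, was 4.46-fold higher in HC with 10.92 in HC, 8.76 in NC+IL6, 10.71 in HC+IL6 and 8.78 in NC, and 1 of its 2 other measured probe sets had the opposite sign. The fractalkine receptor Cx3cr1 was 3.59-fold higher in HC, with 13.33 in HC, 11.48 in NC+IL6, 12.15 in HC+IL6 and 13.04 in NC. Hspa1b, an inducible heat-shock chaperone, was 3.58-fold higher, while 0 of the other 19 measured chaperones of that list passed 2-fold. The 7 subunits of the phagocyte NADPH oxidase had log2 ratios of -0.39 to 0.41.

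Several other lists had 1 or 2 genes past 2-fold, where 3.54% of all genes were lower in HC. Of 16 Toll-like receptors and co-receptors 1 was lower in HC, the adaptor Myd88 (2.4-fold), and of 17 NF-kB subunits and inhibitors 1, the kinase Ikbke (at least 3.72-fold). Of 33 lysosomal genes 1 was lower, Ctsc, the protease that activates granule enzymes, with 11.93 in HC, 14.10 in NC+IL6, 13.64 in HC+IL6 and 12.73 in NC. Of 8 inflammasome genes and nucleic acid sensors 2 were lower, Zbp1 and Casp4 (2.14-fold). Of 20 genes of the TCA cycle and itaconate 1 was lower, Acod1. Ctsc was brighter in both arrays with IL6 than in both without it.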
